A study of Rattus norvegicus with 17 samples.

Results

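The plasminogen activators and the serpins around them were followed in the middle cerebral artery (MCA) of female rats whose artery had been blocked for a time and reopened (transient MCA occlusion, tMCAO). The genes were Plat, Plau, Plaur, Serpine2, Serpinb2, Serpini1 and Serpinf1, chosen by name, each through the brightest probe set that carried its symbol alone. Such a probe set was found for 5 of the 7, out of 13179 genes tested in all. Serpinb2, a serpin that inhibits urokinase, and Serpini1 (neuroserpin), which inhibits the tissue-type activator in nervous tissue, had none and were counted as not detected.

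Plasmin is the protease that dissolves fibrin, and it also cuts matrix proteins and growth factors. It is made from plasminogen by a pair of activators. The tissue-type activator (tPA, gene Plat) works mainly on fibrin and is released by endothelium, and the urokinase-type activator (uPA, gene Plau) works on cell surfaces, where it is held by its receptor uPAR (gene Plaur). Serpins trap these proteases in inactive complexes, and recombinant tPA is used in patients to dissolve the clot of an ischemic stroke.

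RNA from 17 arteries was measured, 1 array per artery. They were 6 control, 6 non-occluded and 5 occluded MCAs, all from female Wistar rats of 12 weeks and about 250 g that were not in proestrus. Control rats had no operation, and a sham-operated group is not among the arrays. In the operated rats a filament, placed under isoflurane, closed the right MCA for 2 h, and after its removal the rats recovered for 3 h before the occluded right and the non-occluded left MCA were taken. Side and occlusion cannot be told apart for that reason, and neither can occlusion and the carotid surgery done to place the filament. When the comparison is with control, anesthesia and recovery cannot be told apart from occlusion either. The same 6 control arrays served both comparisons with control, and 5 rats gave both arteries.

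Each value is a log2 expression value from robust multi-array averaging (RMA), so a difference of 1 is a doubling. Array medians ranged from 7.36 to 7.49. The arteries carried the RNA of smooth muscle, with Myh11 between 12.70 and 13.08 and Tagln between 13.09 and 13.35 on all arrays. A whole artery segment is a mixture, and fewer cells of a type and less RNA per cell cannot be told apart in it. Levels of different probe sets were not compared with each other.

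The stretches before the start sites of Plau and Plaur, the genes with the largest changes here, are shown because these genes rose together. Both are the 250 bases upstream of the annotated start in RefSeq on the rat build GRCr8, written 5′ to 3′ on the strand of the gene. Plau lies on the minus strand at chr15:3511988-3512237 and Plaur on the plus strand at chr1:89181113-89181362. Capitals mark matches on either strand to the GC box (GGGCGG) in Plau and to the AP-1 motif (TGANTCA) in Plaur.
Plau: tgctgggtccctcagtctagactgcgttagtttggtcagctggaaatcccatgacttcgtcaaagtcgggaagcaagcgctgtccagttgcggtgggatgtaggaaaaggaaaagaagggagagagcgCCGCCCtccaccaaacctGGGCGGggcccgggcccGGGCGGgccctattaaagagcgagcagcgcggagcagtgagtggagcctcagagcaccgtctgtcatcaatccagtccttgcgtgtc
Plaur: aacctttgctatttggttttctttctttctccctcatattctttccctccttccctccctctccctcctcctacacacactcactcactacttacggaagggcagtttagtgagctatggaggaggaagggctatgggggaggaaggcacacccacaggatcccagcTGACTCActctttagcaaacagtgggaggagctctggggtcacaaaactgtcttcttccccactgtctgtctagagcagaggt

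Plau held 3 GC boxes, the nearest at positions -87 to -82 from the start, and no AP-1 motif, while Plaur held 1 AP-1 motif at positions -83 to -77 and no GC box. The AP-1 letters occur in 6.34% and the GC box in 30.5% of the 33469 rat promoter stretches of the same length. Of the other members with an entry, Serpine2, which fell, held 6 GC boxes, Serpinb2 held 1 AP-1 motif, and Serpinf1 and Serpini1 held neither. Within the stretches searched, the genes that rose together therefore had no match in common for these motifs. Bases farther upstream and other forms of the motifs were not searched, so shared control of Plau and Plaur was not tested. A match describes letters and not a bound site.

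The first comparison asked how levels in the occluded MCA 3 h after reperfusion differed from those in the control MCA. Plaur and Plau rose, Serpine2 fell, and Plat and Serpinf1 did not pass the test. Plaur was 2.22-fold higher and Plau 1.80-fold higher in occluded than in control MCAs, and Serpine2 was 22.8% lower. The 3 of 5 members that passed limma at an adjusted p under 0.05 stood against a background of 42.1% of all tested genes, so a call alone does not set these genes apart. Higher calls took 19.3% and lower calls 22.8% of all genes, and the median change of all genes was -0.02 on the log2 scale.

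Plaur, the receptor that holds urokinase at the cell surface, was at 6.27, 6.48 and 6.74 (lowest, median and highest log2 value) in the 6 control MCAs. In the occluded MCAs it was at 7.99, 7.38, 6.89, 8.08 and 7.99 in rats 12, 10, 8, 15 and 33. The groups did not overlap, as in 25.1% of all tested genes, and rat 8 was the lowest of the occluded arteries. The difference was 1.15 on the log2 scale (SE 0.17, 95% confidence interval 0.79 to 1.51, limma adjusted p = 3.63e-05, n = 5 and 6). The two-sided exact permutation test gave p = 0.00433, which is the smallest that 5 against 6 arrays allow.

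Plau, the urokinase gene, was at 5.97, 6.05 and 6.18 (lowest, median and highest) in the control MCAs, a narrow range. The occluded MCAs had 6.96, 6.43, 6.16, 7.44 and 7.55 in rats 12, 10, 8, 15 and 33. Arteries of 4 of the 5 rats lay above every control, and that of rat 8 lay within the control range. The difference was 0.84 (SE 0.19, 95% confidence interval 0.44 to 1.25, limma adjusted p = 0.00172), with an exact two-sided permutation p of 0.00866. Plau was not called by significance analysis of microarrays (SAM), the test the study's methods name, or by limma with a minimum change of 1.5-fold, and the same held against non-occluded MCAs. SD rose from 0.086 in the control to 0.61 in the occluded MCAs, so the size of the change varied widely between rats. It was 1.03 without rat 8 and 0.68 without rat 33. With only the arrays of the 2 groups the limma adjusted p of Plau was 0.0082.

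The size of the wider response in rat 8 was taken over genes chosen without its array. Over the 447 genes whose mean in the other 4 occluded MCAs was at least 2-fold above control, the artery of rat 8 had a median of 1.30 above the control mean (log2), against 1.40 for the mean of the other 4. With each of the other arteries left out of its own choice of genes in the same way, their medians were 1.06 to 1.71. Over the 225 genes at least 2-fold lower in the other 4, rat 8 had -1.16, against -1.18.

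**Figure D1:**
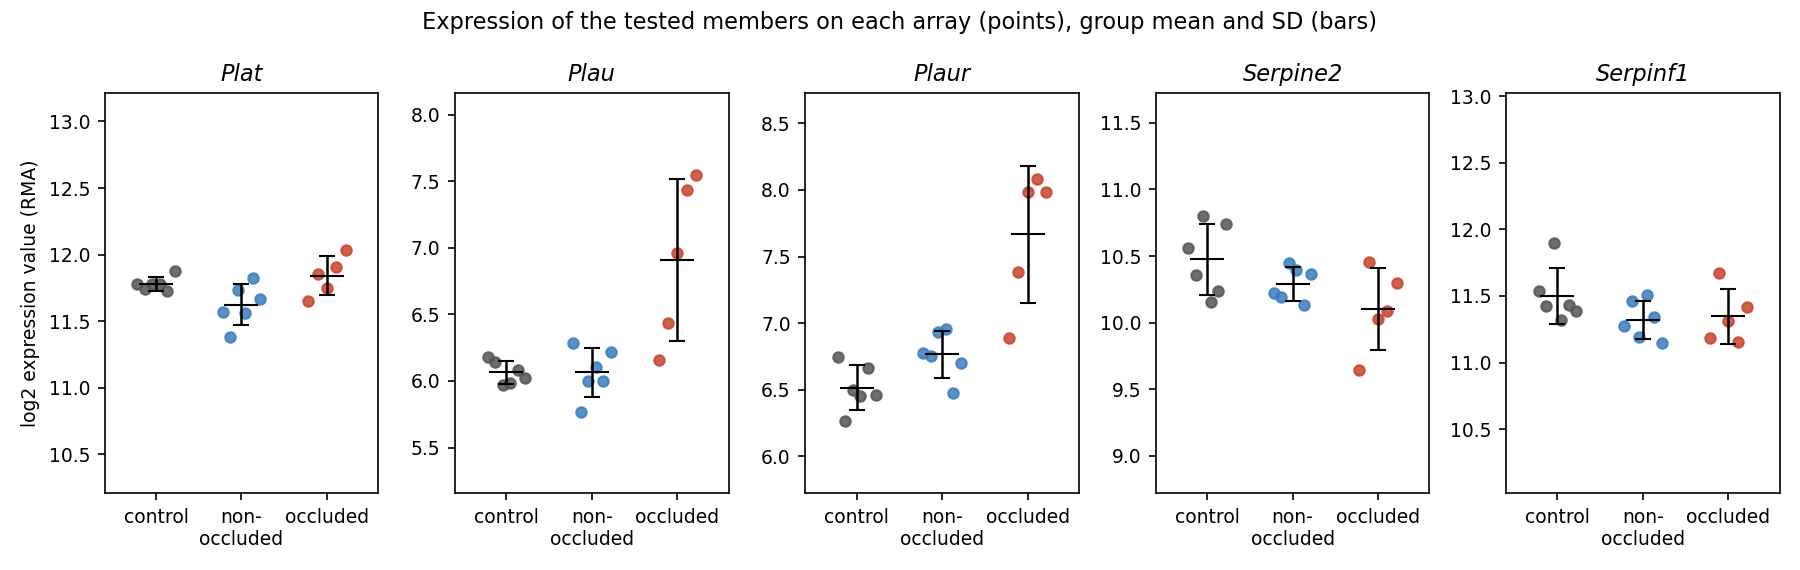
Log2 expression values (RMA) of the 5 tested members on each of 17 arrays (points) in 6 control, 6 non-occluded and 5 occluded MCAs, with the group mean (horizontal bar) and SD (error bars); each panel spans the same number of log2 units. Plaur in occluded MCAs (6.89 to 8.08) lies above all controls, Plau in 4 of the 5 does, and the groups overlap for Serpine2, Plat and Serpinf1.

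Some markers of brain cells moved with these genes and others did not. Of the neuron markers 2 of the 3 tested were higher in occluded than in control MCAs, where 19.3% of all tested genes were. They were Snap25 (0.57, limma adjusted p = 0.0124) and Syt1 (0.36, adjusted p = 0.0494). Rbfox3 (-0.02, adjusted p = 0.860) did not pass. The mean log2 level over the list was 5.57 to 6.12 against 5.43 to 5.64. Snap25, a synaptic protein of neurons, was at 5.56, 5.84, 5.45, 6.45 and 6.46 in the occluded MCAs of rats 12, 10, 8, 15 and 33 and at 5.10 to 5.63 in the controls. The arteries of rats 15 and 33, highest for Plau, were thus also highest for Snap25, and that of rat 8 was lowest for both. This likeness was picked after the values were seen.

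Of the astrocyte markers 1 of 4 was higher, with a list mean of 7.33 to 8.85 in occluded and 6.26 to 7.97 in control MCAs. It was Gfap, the astrocyte filament protein, at 8.59 to 9.99 against 6.31 to 7.73, and rat 8 had the lowest value of the occluded arteries. Aqp4 (1.31, limma adjusted p = 0.0508), Slc1a2 (0.70) and Slc1a3 (-0.35) did not pass, and 19.3% of all tested genes were higher. Of the oligodendrocyte markers 0 of 4 passed (list mean 6.28 to 7.10 against 6.58 to 6.73). Of the microglia markers 0 of 3 were higher and 1 was lower (5.80 to 6.25 against 6.19 to 6.94), P2ry12, a purinergic receptor, which fell by 1.16 (SE 0.24, limma adjusted p = 0.000681).

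Of the monocyte and macrophage markers 2 of 5 were higher (list mean 7.20 to 7.96 against 6.65 to 7.64). Of the neutrophil markers 1 of 2 was higher (5.52 to 6.50 against 4.86 to 5.11), where 19.3% of all tested genes were. Cd14 (1.76) and Cd163 (1.44) of the first list and S100a9 (1.49) of the second passed. Csf1r (-0.53), Cd68 (0.18) and Adgre1 (0.26) of the first list and Csf3r (0.05) of the second did not. Cd14 of monocytes was at 9.73 in the occluded artery of rat 8, inside the range of 8.59 to 9.93 of the others, while S100a9 of neutrophils was at 5.65 there, the lowest of the occluded arteries (5.95 to 7.30 in the others). The part of these cells in the changes of Plau and Plaur was not tested.

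Plat, the tPA gene, was at 11.73, 11.78 and 11.88 (lowest, median and highest) in control MCAs and at 11.75, 11.85, 11.65, 11.91 and 12.04 in the occluded MCAs of rats 12, 10, 8, 15 and 33. The groups overlapped. The difference from control was 0.06 (SE 0.077, 95% confidence interval -0.10 to 0.22, limma adjusted p = 0.575), and 0.11 without rat 8 and 0.012 without rat 33.

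Serpine2 (protease nexin-1), a serpin that inhibits thrombin, urokinase and plasmin, was at 10.15, 10.46 and 10.80 (lowest, median and highest) in control MCAs. The occluded MCAs of rats 12, 10, 8, 15 and 33 had 10.03, 10.46, 9.64, 10.09 and 10.29. Arteries overlapped between the groups, with rat 8 the lowest of all 17. The fall was -0.37 (SE 0.14, 95% confidence interval -0.66 to -0.087, limma adjusted p = 0.0355), and the exact two-sided permutation test gave p = 0.0649. The call was lost when the control of rat 36, 21 or 4 was left out (adjusted p = 0.0798, 0.0824 and 0.0614) and when the occluded artery of rat 12, 8 or 15 was (0.0676, 0.114 and 0.0643). Without rat 8 the change was -0.26.

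Of the endothelial and of the smooth muscle markers, 2 of the 3 tested were lower, where 22.8% of all tested genes were. Tek fell by 1.12, Tie1 by 0.61, Smtn by 0.68 and Myh11 by 0.16, while Cdh5 (-0.12) and Tagln (-0.08) did not pass. The mean log2 level of the endothelial list was 8.93 to 9.97 in occluded and 9.89 to 10.26 in control MCAs, and that of the smooth muscle list 12.12 to 12.35 against 12.36 to 12.69. Fibroblast markers fell in 2 of 5 (10.91 to 11.22 against 11.08 to 11.32). Pericyte markers moved both ways (list mean 9.05 to 9.61 against 8.96 to 9.29). Kcnj8 (1.73, SE 0.17) and Abcc9 (1.07, SE 0.15), subunits of a potassium channel, rose, and Pdgfrb fell by 1.08 (SE 0.11) and Notch3 by 0.53 (SE 0.14). The part of these lists in the changes of Serpine2, Plau and Plaur was not tested.

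Serpinf1, which encodes the antiangiogenic serpin PEDF and is not an inhibitor of proteases, was at 11.32, 11.43 and 11.90 (lowest, median and highest) in control MCAs. It was at 11.31, 11.67, 11.19, 11.16 and 11.42 in the occluded MCAs of rats 12, 10, 8, 15 and 33. The ranges overlapped, and the difference of -0.15 (SE 0.11, 95% confidence interval -0.38 to 0.076, limma adjusted p = 0.288) did not pass the test. It was -0.072 without the control of rat 21 and -0.23 without the occluded artery of rat 10.

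The second comparison asked whether the artery on the other side of the same operated rats differed from control. None of the 5 members passed limma, against 3.92% of all tested genes (1.79% higher and 2.12% lower), and none had groups that did not overlap, against 3.16%. At an unadjusted p under 0.05 limma gave 1 of them, Plat, and the exact permutation test gave 2, Plaur and Plat. The share of all tested genes at that unadjusted level was not counted, so these do not set the members apart. SAM called 0.

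Plaur was at 6.47, 6.76 and 6.95 (lowest, median and highest) in the non-occluded MCAs, and 4 of 6 lay above every control. Its difference from control was 0.25 (SE 0.16, 95% confidence interval -0.097 to 0.60, limma adjusted p = 0.439, exact two-sided permutation p = 0.026 before adjustment). With only the arrays of the 2 groups the limma adjusted p of Plaur was 0.178. Plat was at 11.38, 11.62 and 11.83 in the non-occluded MCAs, and 4 of 6 lay below every control. It differed from control by -0.16 (SE 0.074, 95% confidence interval -0.31 to -0.0027, limma adjusted p = 0.258, exact two-sided permutation p = 0.0325 before adjustment).

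Plau in the non-occluded MCAs was at 5.77, 6.06 and 6.29, around the controls. Its group mean of 6.06 was that of the controls, with a 95% confidence interval of the difference of -0.39 to 0.39. The fit took 1 spread per gene over all 3 groups, so this interval also carries the spread of the occluded MCAs. The SD of Plau was 0.086 in control, 0.19 in non-occluded and 0.61 in occluded MCAs. Serpine2 was at 10.13, 10.29 and 10.44 and differed by -0.18 (SE 0.13, limma adjusted p = 0.475). Serpinf1 was at 11.15, 11.31 and 11.51 and differed by -0.18 (SE 0.10, limma adjusted p = 0.367). Without the control of rat 21 these differences were -0.12 for Serpine2 and -0.099 for Serpinf1.

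In this comparison 1 of 4 astrocyte, 1 of 2 neutrophil and 1 of 5 monocyte and macrophage markers passed, and no marker of the other lists did. Gfap was higher by 1.03 (SE 0.28, limma adjusted p = 0.0449), S100a9 by 1.17 (SE 0.26, adjusted p = 0.0168) and Cd163 of macrophages by 1.13 (SE 0.23, adjusted p = 0.0107). The rest of these lists went both ways, with Adgre1 of macrophages at -0.53 and Csf3r of neutrophils at 0.30. The part of these cells in the levels of the members was not tested. Snap25 had -0.04 (SE 0.16, adjusted p = 0.933) and Cd14 had 0.58 (SE 0.18, adjusted p = 0.0854).

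The third comparison set the occluded against the non-occluded MCAs, which share anesthesia and recovery. The carotid ligation and the filament were part of closing the right MCA, so they cannot be told apart from occlusion here. Plaur, Plau and Plat were higher in the occluded arteries, and no member was lower. The 3 of 5 called compare with 32.8% of all tested genes called, 17.1% being higher and 15.7% lower. Plaur was 1.87-fold higher (log2 difference 0.90, SE 0.17, 95% confidence interval 0.54 to 1.26, limma adjusted p = 0.000585), and 4 of the 5 occluded arteries lay above every non-occluded one. No member had groups that did not overlap, which 20.2% of all tested genes had.

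Plau was higher by 0.84 (SE 0.19, 95% confidence interval 0.44 to 1.25, limma adjusted p = 0.00237), again with 4 of 5 occluded arteries above every non-occluded one. Plat differed from control by 0.06 in occluded and by -0.16 in non-occluded MCAs, and neither passed. Between these arteries it was 1.16-fold higher in the occluded ones (0.22, SE 0.077, 95% confidence interval 0.056 to 0.38, limma adjusted p = 0.0386), with overlapping groups. This small change of Plat lost its call without the non-occluded artery of rat 15, 10 or 8 (adjusted p = 0.0720, 0.0895 and 0.0713) and without the occluded artery of rat 10, 15 or 33 (0.0716, 0.0897 and 0.119). Serpine2 (-0.19, SE 0.14, 95% confidence interval -0.48 to 0.096, adjusted p = 0.314) and Serpinf1 (0.03, SE 0.11, 95% confidence interval -0.20 to 0.26, adjusted p = 0.879) did not pass. Without the occluded artery of rat 8 the difference of Serpine2 was -0.075.

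**Figure D2:**
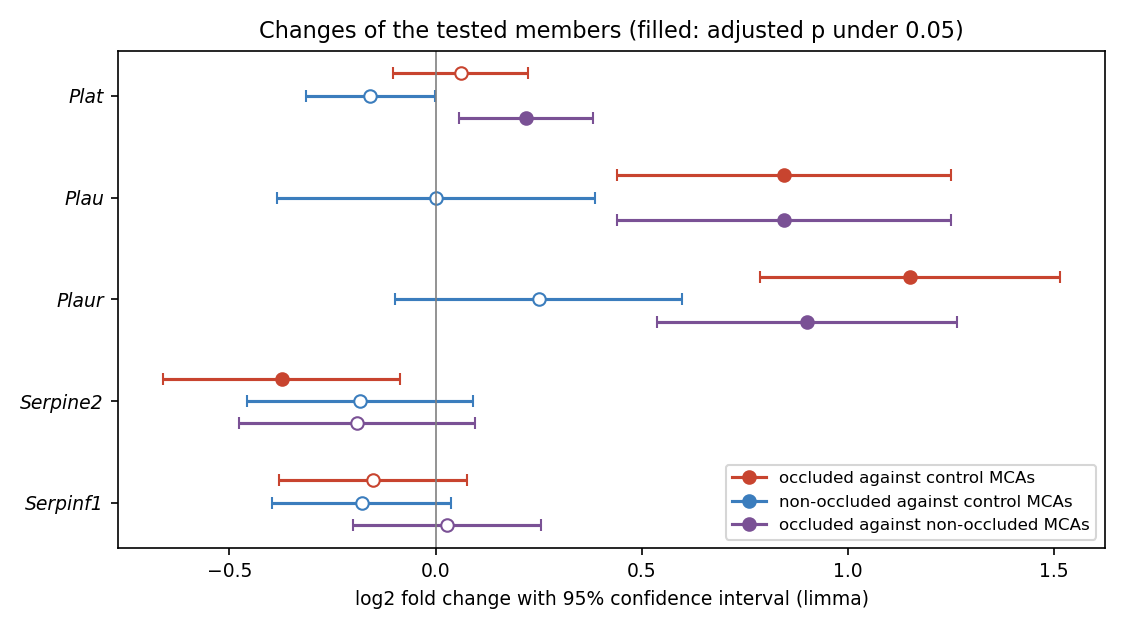
Log2 fold changes (points) of the 5 tested members with 95% confidence intervals from limma in the 3 comparisons; filled points passed an adjusted p under 0.05. Plaur and Plau passed in both comparisons of the occluded MCAs, Serpine2 (-0.37) only against control, Plat (0.22) only against non-occluded MCAs, and no member passed in non-occluded against control MCAs.

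Within the 5 rats that gave both arteries, Plaur was higher on the occluded side in 5 of 5, by 1.05, 0.63, 0.11, 1.13 and 1.28 in rats 12, 10, 8, 15 and 33 (log2; mean 0.84 ± 0.47, SD, n = 5). Plau was higher in 4 of 5, by 0.96, 0.67, 1.33 and 1.33 in rats 12, 10, 15 and 33, and rat 8 had -0.13. Rat 8 thus had the smallest difference for both genes of the urokinase pair. Plat was higher in 5 of 5, by 0.02, 0.47, 0.09, 0.35 and 0.37 in rats 12, 10, 8, 15 and 33 (mean 0.26 ± 0.19, SD, n = 5).

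Serpine2 was lower on the occluded side in 4 of 5 rats, with rat 10 at 0.27 and a mean of -0.22 ± 0.33 (SD, n = 5). Serpinf1 had a mean of 0.03 ± 0.25. With 5 pairs the exact two-sided permutation test cannot go below 0.0625, the value it gave for Plaur and for Plat, and it gave 0.125 for Plau, 0.188 for Serpine2 and 0.813 for Serpinf1.

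**Figure D3:**
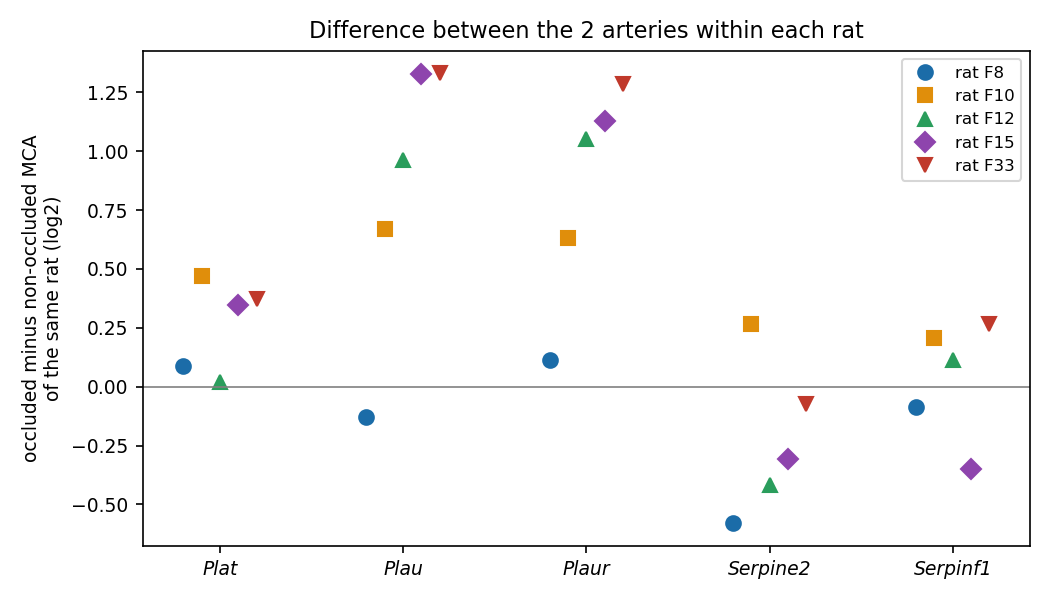
Log2 expression value of the occluded minus that of the non-occluded MCA of the same rat (vertical axis) for each tested member, 1 symbol per rat and 5 rats; the line marks no difference. All rats lie above the line for Plaur (0.11 to 1.28) and Plat, and rat 8 is the only one below it for Plau.

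The genes whose log2 values ran most like those of each called member over the 17 arrays were found by Pearson's r, given as a measure of likeness only, since all arrays share the same 3 groups. For Plaur they were Lif (r = 0.950), a cytokine of the interleukin-6 family, Plec (0.945), which encodes the cytoskeletal linker plectin, and Spry2 (0.941), an inhibitor of receptor tyrosine kinase signaling. For Plau they were Spred1 (0.945), another inhibitor of that signaling, Spry2 (0.936) and Ercc1 (0.935), which acts in DNA repair. Spry2 stood in both lists. For Serpine2 they were Cilp (0.891), a matrix protein of cartilage, Rxrg (0.889), a retinoid X receptor, and L1cam (0.885), a neural adhesion molecule. For Plat they were Dusp16 (0.862), a phosphatase of MAP kinases, Rai12 (0.789) and Prr3 (0.779).

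Around the members stand the receptors that gather plasminogen or clear the activators. Of the 16 genes listed, 14 were tested, and in occluded against control MCAs 5 were higher, 2 lower and 7 did not pass, with a median of 0.25. Itga5, the alpha subunit of the fibronectin receptor and a partner of uPAR, had the smallest p and rose by 2.07 (SE 0.18, limma adjusted p = 6.74e-08). S100a10 (0.62, SE 0.21) and Anxa2 (0.34, SE 0.12), the subunits of a complex that binds tPA and plasminogen, both rose. Itgam, the alpha chain of the Mac-1 integrin of myeloid cells, rose by 0.72 (SE 0.18), and its partner Itgb2 had 0.33 (SE 0.14, adjusted p = 0.0631). Igf2r, which binds uPAR and latent growth factors, rose by 0.43 (SE 0.10).

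Plgrkt, a membrane receptor of plasminogen that the array lists under an older symbol, fell by 0.82 (SE 0.11), and Sorl1, a sorting receptor that takes up activator complexes, fell by 0.59 (SE 0.14). Lrp1, the main endocytic receptor for tPA and uPA complexes, had -0.13 (SE 0.076, adjusted p = 0.193). In non-occluded against control MCAs 1 of the 14 passed, Itga5 at 0.69 (SE 0.17, adjusted p = 0.0291). Itgb1 (0.22, SE 0.067) and Plgrkt (-0.24, SE 0.10) had an unadjusted limma p under 0.05 there but did not pass. In occluded against non-occluded MCAs 2 were higher (Itga5 and Anxa2) and 1 lower (Plgrkt).

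Of 13 genes for plasminogen, its inhibitors and other regulators of fibrinolysis, 8 were tested, and 3 were higher, 0 lower and 5 did not pass in occluded against control MCAs (median 0.24). Plg itself, made mainly in the liver, had 0.07 (SE 0.074, adjusted p = 0.504). Tfpi2, an inhibitor of plasmin in the matrix, rose by 4.50 (SE 0.24), A2m, a broad protease trap, by 4.16 (SE 0.24) and Serping1, the C1 inhibitor, by 0.22 (SE 0.066). A2m was also higher in non-occluded than in control MCAs (1.103, SE 0.23, adjusted p = 0.0122). Plg (0.20, SE 0.071) and F12 (0.19, SE 0.072) had an unadjusted limma p under 0.05 there but did not pass. Thbd (thrombomodulin) had 0.43 (SE 0.18, adjusted p = 0.0626) against control and rose against non-occluded MCAs (0.58, SE 0.18, adjusted p = 0.0167), where Tfpi2 and A2m made up the rest of the 3 that were higher.

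Of 15 genes for proteins cut by plasmin or its activators or activated through them, 10 were tested. In occluded against control MCAs 4 were higher, 3 lower and 3 did not pass (median 0.31). Hgf, a growth factor that urokinase can activate, rose by 2.09 (SE 0.32), Mmp9, a gelatinase, by 1.19 (SE 0.26), Fgb, the fibrinogen beta chain, by 0.71 (SE 0.16), and Pdgfc, a growth factor that tPA activates, by 0.55 (SE 0.10). Pdgfd, which urokinase activates, fell by 0.89 (SE 0.17), Mmp2 by 0.41 (SE 0.15) and Tgfb1 by 0.29 (SE 0.094). None of the 10 passed limma in non-occluded against control MCAs, where 1 (Lamc1) had an unadjusted p under 0.05. In occluded against non-occluded MCAs 4 were higher and 2 lower.

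Of 13 other serpins 5 were tested. Serpina3n, an acute phase serpin, rose by 0.64 (SE 0.12) and Serping1 rose as given above, Serpinb9, an inhibitor of granzyme B, fell by 0.46 (SE 0.17) and Serpinb6 by 0.18 (SE 0.066), and Serpinh1, a collagen chaperone, had 0.06 (SE 0.11, adjusted p = 0.689). None of the 5 passed limma in non-occluded against control MCAs, where 1 (Serpinb9) had an unadjusted p under 0.05. Serpina3n was the only one of the 5 that passed between occluded and non-occluded MCAs (0.62, SE 0.12). These lists were read against the 42.1% and 32.8% of all genes that passed, and nothing particular to a list was tested.

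**Figure D4:**
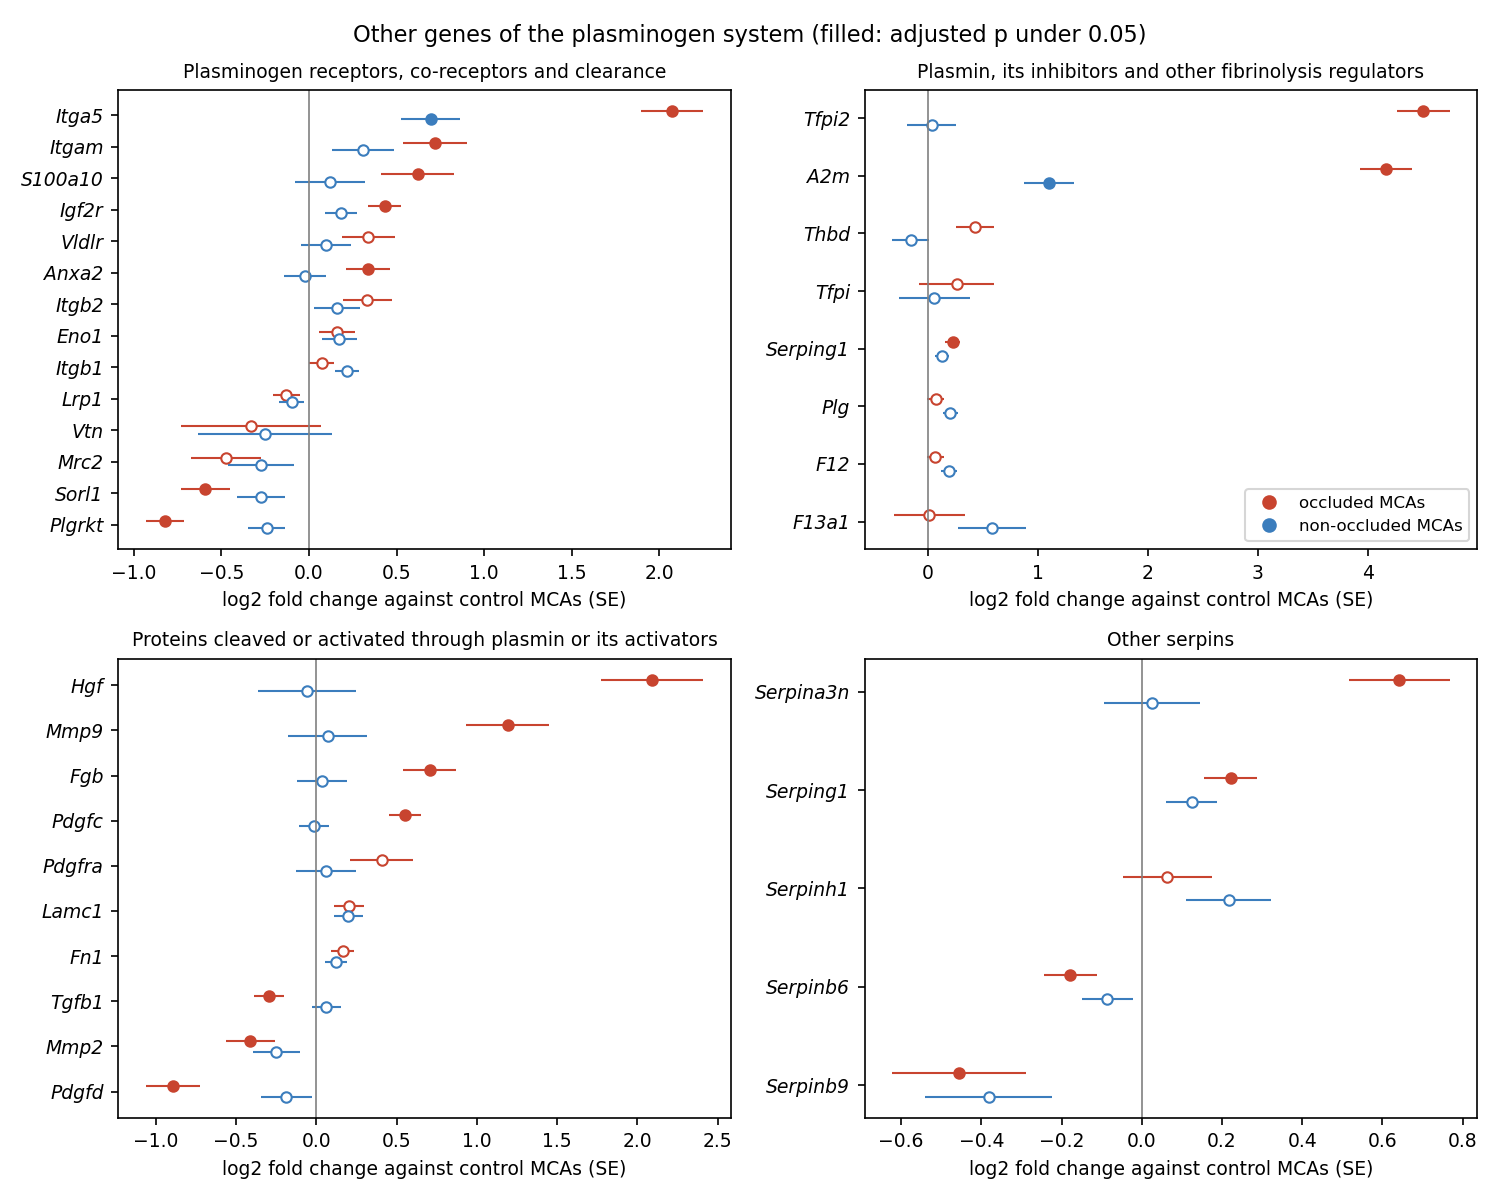
Log2 fold changes (points, with SE) against control MCAs of the other tested genes of the plasminogen system in occluded (red) and non-occluded (blue) MCAs, in 4 panels by role; filled points passed a limma adjusted p under 0.05, and the horizontal scales differ between panels. Tfpi2 (4.50) and A2m (4.16) reach farthest in the occluded MCAs, and only Itga5 (0.69) and A2m (1.103) passed in the non-occluded MCAs.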

How the data were processed

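The arrays were Affymetrix whole-transcript rat gene arrays. The authors deposited log2 expression values from RMA in Affymetrix Expression Console 1.1.2, with quantile normalization. For each comparison on its own they dropped probe sets that lay below the negative controls' median in 80% of samples. Such a filter can leave out a gene that is dim in most groups. Their tables also hold the authors' own p-values, fold changes and SAM scores with q-values, which were not used.

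Of 14143 probe sets in the 3 tables, 13809 had a value on all 17 arrays and were tested, for 13179 genes. The fit used limma (version 3.58.1, under R version 4.3.3) on all arrays together, with 1 mean for each group, residual degrees of freedom of 14 and Benjamini-Hochberg adjustment over the 13809 probe sets at 0.05. The study's methods name SAM, which was run as an alternative with 100 permutations and called at a q of 0. All p-values of single genes are limma's unless an exact permutation test is named. The precision is set by the number of arrays. Exact tests and figures were made in Python (3.11.15) with scipy 1.17.1, numpy 2.4.6, pandas 2.3.3 and matplotlib 3.10.9. The fit was tested on simulated data, in which 67, 67 and 66 probe sets were changed 1.5-, 2- and 4-fold in the occluded MCAs. It recovered 89.6%, 95.5% and 100% of them against control, and 7.32% of its calls were false. The simulation gave every group the same spread and changed few probe sets, unlike these data, where 42.1% of genes were called.

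The labels give the same rat for both arteries of 5 rats, and replicates are separate rats within a group. After the group means were removed, arteries of the same rat correlated at 0.156 to 0.486 (median 0.351), and other pairs at -0.294 to 0.327. Promoter sequences came from RefSeq, with 6 of the 7 members matched. The members and gene lists were chosen with earlier results of these data known. The text names all members, the 3 genes most like each called one, and the 4 genes of each list with the smallest limma p in any comparison. Others were singled out after their values were seen (S100a10, Anxa2, Itgam, Itgb2, Itgb1, Lrp1, Plg, F12, Fgb, Mmp2, Tgfb1, Serpinh1 and Lamc1). Markers of other cell types, Myh11 and Tagln among them, came from lists written to check the tissue, and those shown singly were also picked after their values were seen.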

Additional observations from a re-analysis of the deposited data

Results flagged for a closer look

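Plat in the control MCA of rat 36 (11.88) and Serpinf1 in the control MCA of rat 21 (11.90) stood apart above the other 5 controls of their group. In all 15 groups of a gene were looked at and 2 had such an array, and chance gives about 1 in 20. Neither gene was called against control with all arrays. Without rat 21 the change of Serpinf1 was -0.072 in occluded and -0.099 in non-occluded MCAs, in place of -0.15 and -0.18.

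The change from control differed between occluded and non-occluded MCAs for Plaur (by 0.90, log2), Plau (0.84) and Plat (0.22). As both changes share the 6 controls, the test of this difference is limma's comparison of occluded with non-occluded MCAs, with adjusted p of 0.000585, 0.00237 and 0.0386.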

How the results depend on the processing

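Plaur kept its call in occluded against control MCAs in every setting run. Of the 2 members higher in occluded against control MCAs, 1 (Plaur) was called by SAM and 1 (Plaur) with a minimum change of 1.5-fold, and leaving out each array gave 2 to 2. The 1 lower member, Serpine2, gave 0 under SAM and 0 with the 1.5-fold minimum. It also gave 0 with arrays centred on their median (limma adjusted p = 0.0507) and with only the arrays of the 2 groups (0.0751). The setting with the comparison's own probe sets also took only those arrays, so it was no separate check of them, and gave 0 (0.0752). Leaving out single arrays gave 0 to 1. Of the 3 members higher than in non-occluded MCAs, SAM called 1 (Plaur) and the 1.5-fold minimum 0, and leaving out each array gave 2 to 3. Plau and Plaur kept their calls there in the other settings except the exact permutation test, which cannot pass with 5 pairs. Plat also lost its call there with only the 2 groups (adjusted p = 0.0767) and with centred arrays (0.0665). Over the comparison's own probe sets, again with only the arrays of the 2 groups, it had an adjusted p of 0.0772. The cause of these losses was not tested.

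Small differences changed sign when single arrays were left out. Plau in non-occluded against control MCAs ranged from -0.045 to 0.060, and Serpinf1 in occluded against non-occluded MCAs from -0.053 to 0.075. With rat as a random replicate block, the counts of higher and lower members were 2 and 1, 0 and 0, and 3 and 0 in the 3 comparisons, and with rat as a fixed replicate block 3 and 0 in the third. The pairing changed no call of a member. Arrays carry no read depth, and their number limits the precision.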
